A study of Drosophila melanogaster with 48 samples.

Results

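The glutathione S-transferase genes of Drosophila melanogaster were followed in whole flies of 8 numbered lines whose larvae had fed on 3 media. A gene was taken as a member if its probe set carried a single symbol made of Gst, a class letter (D, E, O, S, T or Z) and digits, and the probe set with the highest mean signal stood for the gene. This gave 34 genes of the 11982 single-symbol genes on the array: 11 of class D, 13 of class E, 3 of class O, 1 of class S, 4 of class T and 2 of class Z. A single probe set read 32 of them, and GstE9 and GstO2 had 2 each. GstE8 was not analysed here.

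The larval media were tomato paste in standard medium, 9% ethanol in standard medium, and the standard cornmeal-molasses medium itself. Lines 158, 304, 362, 379, 380, 774, 786 and 859 were each grown on all 3 media, with 2 arrays per line and medium, which makes 48 arrays, 16 per medium and 6 per line. All adults were kept on standard medium at 25 degrees C after eclosion, and total RNA of the whole body was hybridised to Affymetrix arrays. The labels do not say what the line numbers stand for, give no sex, and give an age of 3 to 5 days for 4 arrays only. Whether the paired arrays of a line and medium are separate cultures is not stated. P-values for lines and for the interaction therefore measure only the spread between arrays, which may be technical. For title style they measure how far the difference between styles varied over 5 lines, with 1 array of each style per line. Those for media in the main fit measure how far the difference between media varied over the lines. Some checks on media used single arrays instead, and some checks on lines used another fit to single arrays, as described with the processing.

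Glutathione S-transferases join the tripeptide glutathione to electrophilic compounds, which makes plant toxins, insecticides and products of lipid oxidation more soluble and easier to export. The Delta (D) and Epsilon (E) classes are the insect-specific ones, lie in gene clusters and are known for detoxification and insecticide resistance. The Omega (O), Sigma (S), Theta (T) and Zeta (Z) classes are shared with other animals and include enzymes of eye pigment synthesis, of lipid peroxide removal and of tyrosine breakdown. In flies many of these genes respond to the transcription factor CncC, which is held in check by Keap1.

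In the RefSeq gene order the D genes form a run on chromosome arm 3R, from GstD10 through GstD9, GstD1 and GstD2 to GstD8, with CG10035 between GstD8 and GstD11. GstE10 and GstE1 to GstE9 form a run on 2R, while GstE11, GstE12, GstE13 and GstE14 lie apart from it on the same arm. GstO1, GstO2 and GstO3 lie around the Omega-class gene se on 3L, GstT1, GstT2 and GstS1 lie on 2R, GstT3 and GstT4 on X, and GstZ1 beside GstZ2 on 3R.

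Each array had been scaled to a trimmed mean signal of 500, and array medians ran from 84.2 to 160.2. Arrays of the same line and medium correlated at 0.783 to 0.991 (median 0.959). The titles fall into 2 styles: 33 set line, medium and number apart with spaces, and 15 run them together with a hyphen. The hyphen style stands on 11 tomato, 4 ethanol and 0 standard arrays. The mean log2 signal of 15 eggshell genes, used as an eggshell index, stayed between 11.60 and 13.11 on the tomato arrays with spaces and between 11.63 and 13.05 on standard medium. It was 3.67 to 12.16 on the tomato arrays with a hyphen and 4.80 to 12.59 on ethanol medium, so some of these libraries stand apart. The 9 arrays with the lowest index were left out in a check chosen after seeing the data, whose values are given where that check is named; all other values use all arrays unless another set is named. Indices of yolk protein, accessory gland and testis genes were at least 12.44, 10.64 and 9.69 on every array, so transcripts of both female and male tissues were measured throughout. As the RNA came from whole bodies, fewer cells of a type and less RNA per cell cannot be told apart.

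The 11261 probe sets kept for testing, the upper 60% by mean signal, held 30 members: 7 of class D and all 13, 3, 1, 4 and 2 of classes E, O, S, T and Z. The 4 members left untested were GstD4, GstD5, GstD6 and GstD7, neighbours within the D cluster. Their signals were weak on most arrays: the medians over 48 arrays were 22.7, 46.8, 13.2 and 59.4, and the highest single values 58.6, 131, 87.2 and 169. No level of one gene is set against that of another below, since probe sets differ in their response.

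Most of these genes differed among the lines of flies. Lines, media and title style were tested against different errors, so their counts are not ranked against each other. In limma's F-test, 25 of the 30 tested members (83.3%) differed among the 8 lines at a Benjamini-Hochberg adjusted p under 0.05, where 61.8% of all tested probe sets did. All 7 tested D genes passed, as did 11 of 13 E genes and 7 of the 10 others. The members that did not pass were GstE12 (adjusted p = 0.27), GstE14 (0.078), GstO2 (0.31), GstT1 (0.050) and GstZ2 (0.36) in the same limma fit. In the standard arrays alone 22 members passed (background 48.6%), in the ethanol arrays alone 16 (background 17.8%) and in the tomato arrays alone 7 (background 4.8%).

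The differences between lines were wide. The range of the 8 line means was over 1 log2 unit for 20 members (66.7%), against 29.4% of all tested probe sets, and over 2 units for 6 members (20%), against 5.99%. The median range was 1.74 log2 units for class E, 1.33 for class D and 0.84 for the other classes. When each line was compared with the mean of the other 7, limma called 89 of 240 pairs of gene and line (37.1%), against 19.8% over all probe sets. Of these pairs 50 were higher in the line (background 10.3%) and 39 lower (background 9.55%). By line the members called numbered 9 in line 158 (background 13.5%), 12 in 304 (12.7%), 12 in 362 (19.5%), 10 in 379 (17.6%), 10 in 380 (49.9%), 11 in 774 (15.3%), 13 in 786 (16.4%) and 12 in 859 (13.8%). Only in line 380 was the share of members, 33.3%, below that of all probe sets; the difference between the shares was not tested.

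**Figure D1:**
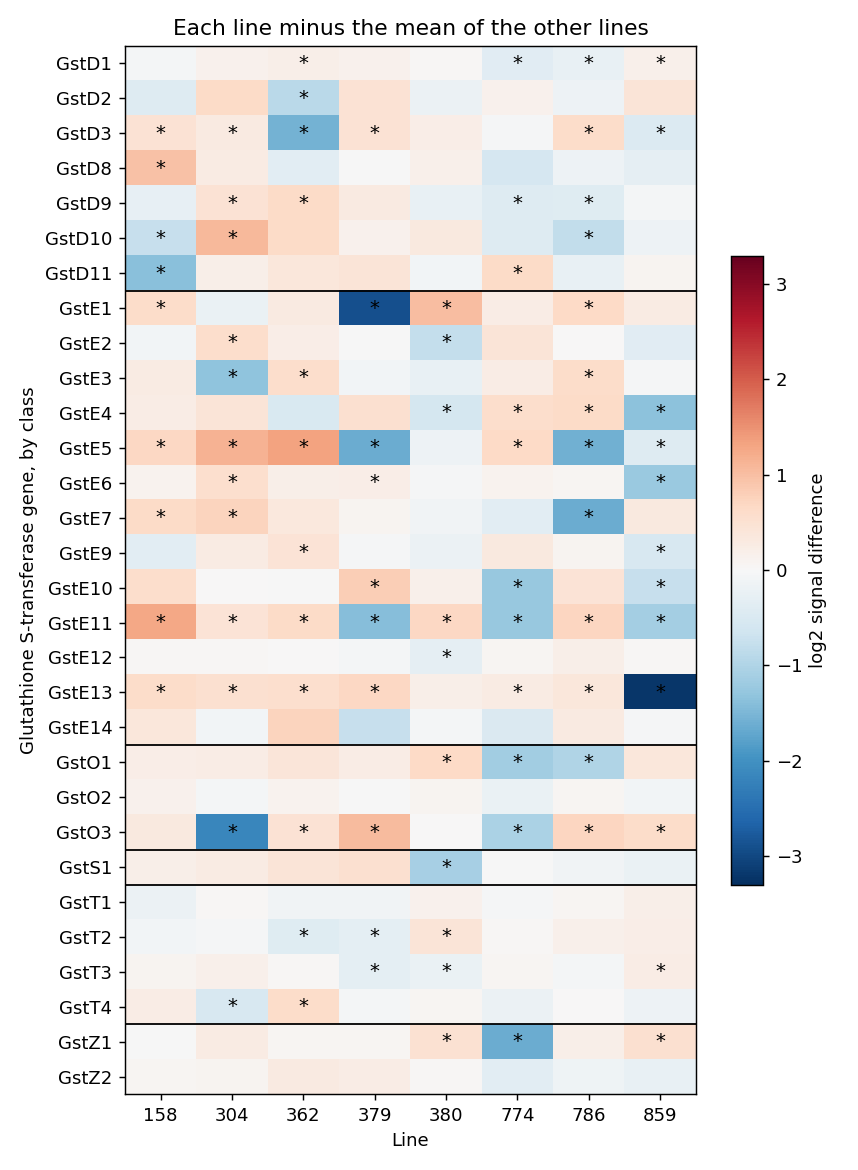
Difference in log2 signal between each line (columns) and the mean of the other lines for the 30 tested glutathione S-transferase genes (rows, grouped by class); an asterisk marks an adjusted p under 0.05 in limma. The darkest cells are low values in a single line, such as GstE13 in line 859 (-3.22) and GstE1 in line 379 (-2.89).

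A recurring form was a single line whose 6 arrays all lay below the other 42. Such a line was found for 6 members (20%), against 2.42% of all tested probe sets: GstE1, GstE6, GstE7, GstE13, GstD3 and GstZ1. No member had a line whose arrays all lay above the rest, where 0.924% of all probe sets did. By Dixon's criterion on the 8 line means, the lowest line stood apart for 8 members (background 6.07%) and the highest for 0 (background 2.82%). GstE6 and GstE7 were singled out after their values were seen.

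GstE13, a class E gene outside the cluster, had signals of 82.1, 100.1 and 114 in line 859 (lowest, median and highest of 6 arrays), against 593, 923 and 1339 in the other 42 arrays. The line 859 arrays stood wholly apart, with no overlap. The difference was -3.22 log2 units (SE 0.09, adjusted p = 3.9e-21 in limma), a 9.29-fold lower signal. It was -3.29 on tomato, -3.18 on ethanol and -3.18 on standard medium.

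GstE1, which has been linked to the response of flies to oxidative stress, had signals of 160, 202 and 268 in line 379 (lowest, median and highest of 6 arrays), against 736, 1419 and 3609 in the 42 arrays of the other lines. Here too the line lay below every other array. The difference was -2.89 log2 units (SE 0.14, adjusted p = 6.7e-15 in limma), or 7.43-fold lower. On tomato, ethanol and standard medium it was -3.15, -2.64 and -2.90. Line 380 lay at the other end of GstE1, with signals of 987 to 3609 and a difference of 1.03 (SE 0.14, adjusted p = 3.3e-06 in limma).

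GstE7 and GstE6, further genes of the cluster, each had a low line of its own. GstE7 had 293, 357 and 455 in line 786, against 731, 1116 and 2503 in the other arrays, a difference of -1.64 (SE 0.14, adjusted p = 1.3e-09 in limma). GstE6 had 1481, 1605 and 1794 in line 859, against 2304, 3863 and 5196 elsewhere, a difference of -1.23 (SE 0.07, adjusted p = 2.2e-13 in limma). Neither gene's low line overlapped the other arrays, and the low lines of these neighbouring genes were different ones.

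GstE11 and GstE5 had several low lines each. GstE11 had signals of 212 to 412 on all 18 arrays of lines 379, 774 and 859, against 743 to 1569 on the 30 arrays of the other 5 lines, with no value in between. The differences of those 3 lines from the rest were -1.39, -1.25 and -1.13, and line 158 was the highest at 1.27 (SE 0.07 for each, adjusted p between 2.1e-14 and 1.2e-12 in limma). GstE5 had 101 to 186 on the 12 arrays of lines 379 and 786, against 249 to 1140 on the 36 arrays of the other lines. Its differences were -1.64 in line 379 and -1.59 in line 786, and 1.33 in line 362 and 1.14 in line 304 (SE 0.13 for each, adjusted p between 3.2e-10 and 2.0e-07 in limma). These split lines were read off the values, so no test of one set of lines against another was made.

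**Figure D2:**
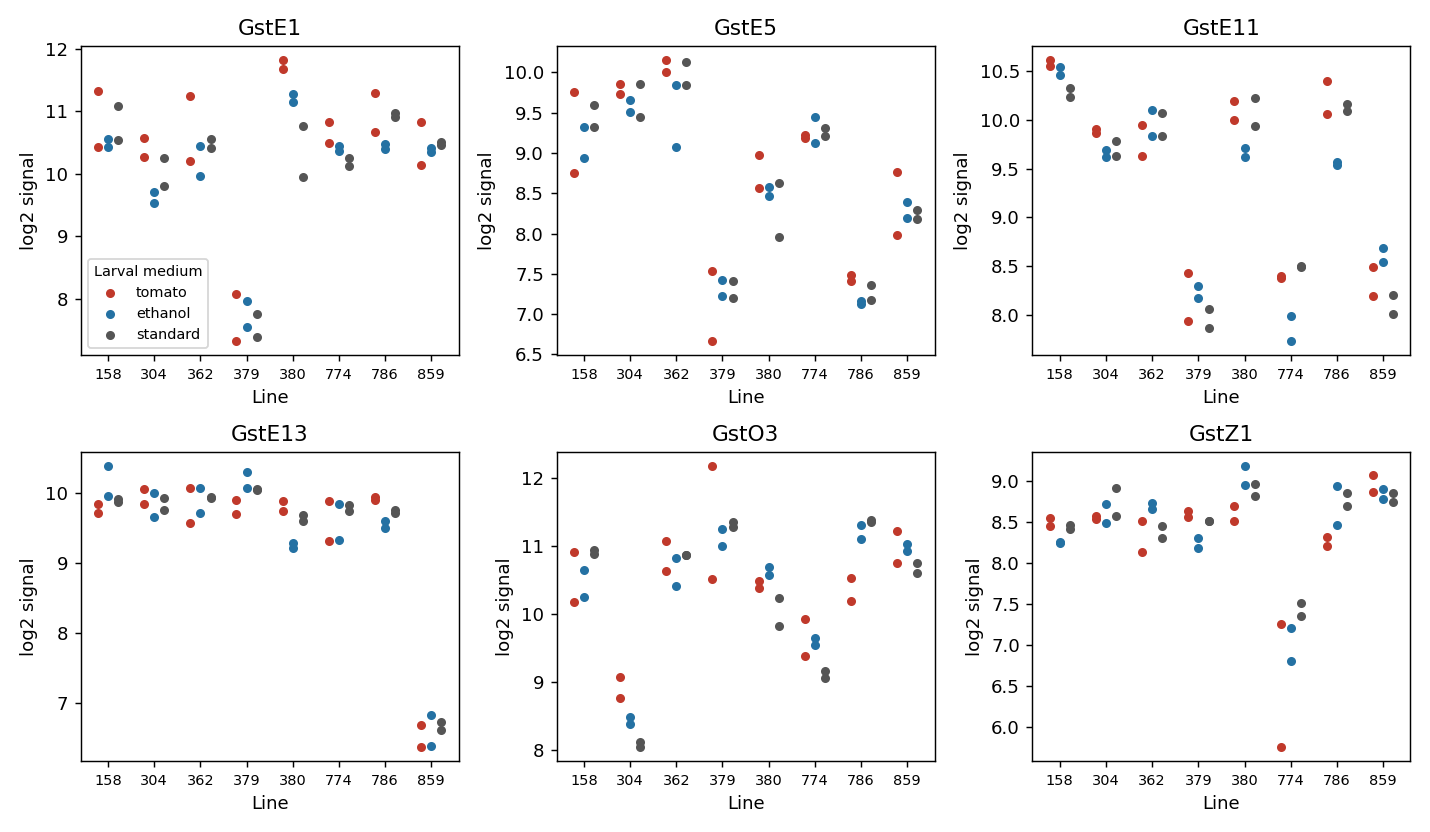
Log2 signal (vertical axis) of 6 genes on each of the 48 arrays, by line (horizontal axis) and larval medium (colour). The 6 arrays of line 859 for GstE13, of line 379 for GstE1 and of line 774 for GstZ1 lie below all other arrays, and those of lines 379, 774 and 859 lie together at the bottom for GstE11.

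Of the remaining E genes, GstE3 was lowest in line 304, with 572, 1120 and 1447 against 1152, 2610 and 5380 in the other arrays, a slight overlap (difference -1.33, SE 0.20, adjusted p = 2.0e-05 in limma). GstE4 was lowest in line 859 (-1.35, SE 0.19, adjusted p = 7.6e-06) and GstE10 in line 774 (-1.25, SE 0.21, adjusted p = 1.2e-04), while GstE2 was lowest in line 380 (-0.79, SE 0.16, adjusted p = 4.9e-04), all in limma. These genes were also named after their values were seen. GstE9 passed with a range of 0.84 log2 units. GstE12 had a range of 0.42 and did not pass, and GstE14, known as noppera-bo and required for ecdysteroid synthesis, had a range of 1.29 from a weak signal (median 85.9) and did not pass.

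In class D the gene that split most was GstD3, which had signals of 222, 271 and 316 in line 362, against 500, 750 and 1259 in the other arrays. Line 362 lay below all of them. The difference was -1.56 log2 units (SE 0.09, adjusted p = 4.6e-13 in limma), and it was -1.30, -1.57 and -1.81 on tomato, ethanol and standard medium. GstD3 was highest in line 786 (0.60, SE 0.09, adjusted p = 3.2e-05 in limma).

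GstD1, a major Delta enzyme known for breaking down DDT, varied least of the D genes, with a range of 0.50 log2 units over the line means. It was nevertheless lower in line 774, with 7187, 8941 and 9776 against 8220, 11709 and 14447 in the other arrays (difference -0.38, SE 0.06, adjusted p = 2.0e-05 in limma). The arrays of line 774 overlapped those of the other lines. Line 786 was also lower (-0.23) and lines 362 (0.19) and 859 (0.17) higher, each under the threshold. Its neighbour GstD9 was high in line 362, with 750, 1258 and 1583 against 499, 731 and 1715 (difference 0.64, SE 0.12, adjusted p = 3.8e-04 in limma), and high in line 304 (0.47). GstD9 was low in lines 774 (-0.43) and 786 (-0.40), and its values overlapped between lines.

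GstD11 was lowest in line 158, with 16.2, 25.9 and 53.4 against 37.7, 72.1 and 155 in the other arrays (difference -1.39, SE 0.21, adjusted p = 2.5e-05 in limma). This probe set is weak, so the fold is uncertain. GstD10 was higher in line 304 (1.07, SE 0.24, adjusted p = 0.0022 in limma), with signals of 101, 178 and 310 against 25.0, 99.4 and 177. It was lower in lines 786 (-0.82) and 158 (-0.76), again with overlap. GstD2 was lower in line 362 (-0.88, adjusted p = 0.010) and GstD8 higher in line 158 (0.95, adjusted p = 0.0025), both in limma.

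Among the remaining classes GstO3, an Omega-class gene beside se, differed most. Its signals in line 304 were 264, 347 and 541, against 532, 1688 and 4628 in the other arrays, with an overlap of the extreme values only. The difference was -2.14 log2 units (SE 0.14, adjusted p = 1.4e-12 in limma), a 4.41-fold lower signal. Line 774 was also low (-1.03, SE 0.14, adjusted p = 2.0e-06) and line 379 high (1.04, SE 0.14, adjusted p = 2.0e-06 in limma), although a tomato array at 4628 stood above the 1466 to 2620 of the other 5 arrays of line 379. GstO1 was 2.22-fold lower in line 774 and 2.01-fold lower in line 786.

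GstZ1, a Zeta-class gene, had signals of 53.7, 150 and 182 in line 774, against 282, 380 and 582 in the other arrays. No array of line 774 reached the others (difference -1.63, SE 0.12, adjusted p = 2.2e-11 in limma). GstZ2, its neighbour, differed by -0.35 in the same line, and its F-test over lines did not pass. In class T the smallest F-test p was that of GstT4, with 2424, 3909 and 5811 in line 362 against 1697, 2583 and 3938 elsewhere (0.60, SE 0.10, adjusted p = 7.0e-05 in limma). GstT4 was lower in line 304 (-0.52, SE 0.10, adjusted p = 4.7e-04 in limma), and GstT1, GstT2 and GstT3 had ranges of 0.34, 0.71 and 0.50.

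GstS1, the Sigma-class enzyme, which acts on the lipid peroxidation product 4-hydroxynonenal and is abundant in flight muscle, was variable between arrays of a line. In line 380 it had signals of 2372, 5410 and 13335, against 3814, 11817 and 20377 in the other arrays, which overlap widely. The difference was -1.09 log2 units (SE 0.27, adjusted p = 0.0024 in limma). It was -2.18 on ethanol and -1.28 on standard medium but 0.20 on tomato medium, where the 2 arrays of the line read 13335 and 11400.

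All but 2 of the 34 genes rest on 1 probe set, and whether other probes of the same gene would show these drops was not tested. GstO2, an Omega-class gene with 2 tested probe sets, shows how far they can part. The brighter one had a range of 0.31 log2 units over the lines (adjusted p = 0.31 in limma) and the other one a range of 2.69 (adjusted p = 2.3e-11 in limma), and their line means correlated at 0.73 (8 lines). The second probe set of GstE9 was too weak to be tested. The D and E genes are also close copies of each other, and cross-hybridisation between them was not tested.

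Classes D and E did not follow the same line order. The class mean of each line and medium was taken over the tested genes after centring each gene on its own mean. Class D was highest in line 304 on tomato (0.58) and standard medium (0.43), while on ethanol lines 379 and 304 were close, at 0.15 and 0.14. All 7 D genes were higher in line 304 than in the other lines and 3 were called (background 5.92% of all probe sets higher). Class E was lowest in line 859, at -0.55 on tomato, -0.46 on ethanol and -0.69 on standard medium. In that line 10 of 13 E genes were lower, with 7 called lower and 0 called higher (background 6.87% lower and 6.97% higher). In lines 158, 774 and 786 the median D gene lay below the other lines, by -0.26, -0.38 and -0.23, and the median E gene above them, by 0.38, 0.24 and 0.29. In line 379 the median D gene was at 0.30 and the median E gene at -0.05. Limma called 3 E genes higher there and 3 lower, the lower ones being GstE1 (-2.89), GstE5 (-1.64) and GstE11 (-1.39). Of the D genes it called 1 higher and 0 lower (background 9.47% higher and 8.09% lower). In line 158 limma called 5 E genes higher and 0 lower, and of the D genes 2 higher and 2 lower (background 6.16% higher and 7.29% lower). In line 774 it called 3 E genes higher and 2 lower, and of the D genes 1 higher and 2 lower (background 9.47% and 5.86%). In line 786 it called 5 E genes higher and 2 lower, and of the D genes 1 higher and 3 lower (background 9.32% and 7.04%). The class means of line 786 had the same sign on tomato (0.06 for D and 0.22 for E) and on ethanol (-0.35 and -0.06), as did those of line 774 on ethanol (-0.13 and -0.03) and standard medium (-0.23 and -0.12). Without the 9 arrays the medians kept these signs, at -0.20, -0.37 and -0.31 for D and 0.21, 0.26 and 0.25 for E in lines 158, 774 and 786, and 0.08 for D and -0.21 for E in line 379. The E median of line 859 was then -0.36, against -0.43 over all arrays, and the D median of line 304 was 0.40, against 0.30. The difference between the D and E means kept its sign on all 3 media in 7 of the 8 lines, the exception being line 380. These class values are descriptions of 7 and 13 genes.

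**Figure D3:**
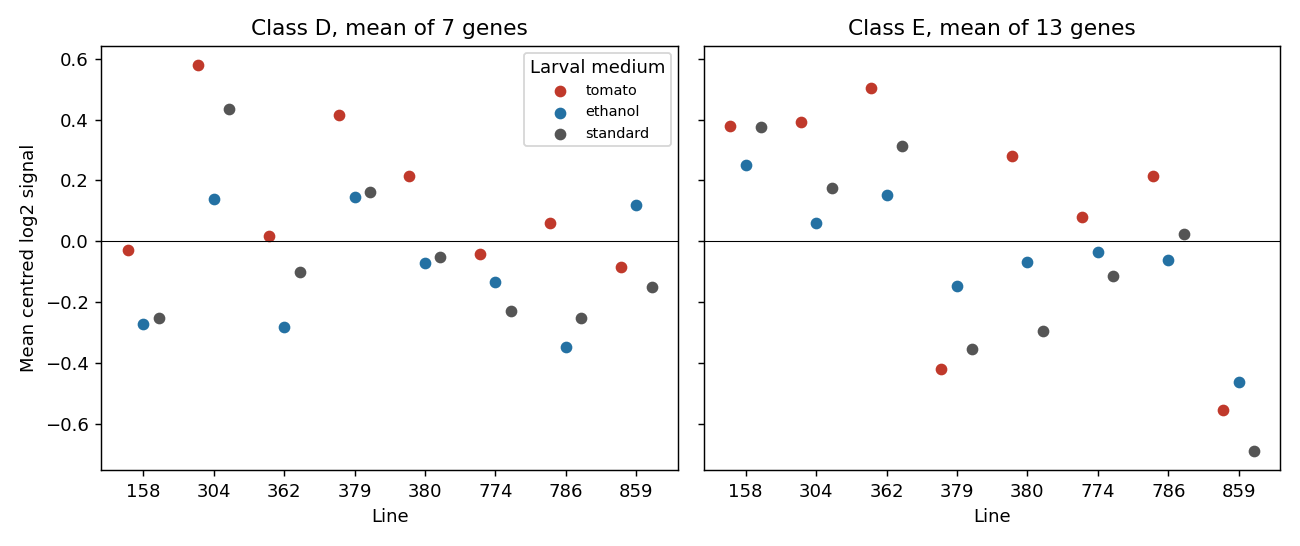
Mean centred log2 signal of the 7 tested class D genes (left) and the 13 tested class E genes (right) in each line (horizontal axis) and larval medium (colour); each point is the mean of 2 arrays. Class E reaches its lowest values in line 859 and class D its highest in line 304 on tomato medium. Line 379 is above 0 in class D and below 0 in class E on all 3 media, although limma called 3 E genes higher and 3 lower there.

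The line profiles of genes in a cluster varied widely in likeness. Over the 8 line means the Pearson correlation between neighbours of the E cluster ran from -0.34 (GstE10 with GstE1) to 0.26 (GstE5 with GstE6). The median over the 36 pairs of the cluster was -0.01, with 18 pairs above 0 and a range of -0.51 to 0.78. After the mean of each line was removed from the 24 combinations, the median over the same 36 pairs was 0.38, with 31 above 0. Within class D the median over the line means was 0.08, with a range of -0.85 to 0.82, and it was 0.21 after the line means were removed (21 pairs). Without the 9 arrays the median of the E cluster was -0.04 over the lines and 0.39 after the line means were removed, and that of class D 0.13 and 0.14. These correlations are descriptions: the points share arrays, and therefore array scaling and tissue makeup.

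Larval tomato medium went with higher signals of 2 members, GstD10 and GstE10, in the comparison over all arrays. Limma called these 2 of 30 higher than on standard medium and none lower, where it called 0.817% of all tested probe sets higher and 0.329% lower (1.15% in all). Both genes stand at the outer end of their clusters. Neither call held in the arrays whose titles have spaces, nor when any line other than 379 was left out.

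GstD10 had signals of 49.6, 139 and 310 on tomato medium (lowest, median and highest of 16 arrays), 36.0, 89.9 and 148 on ethanol medium, and 25.0, 71.0 and 254 on standard medium. The groups overlapped. Its mean log2 signal was 6.93 ± 0.57 on tomato and 6.20 ± 0.85 on standard medium (SD, n = 8 lines), a difference of 0.73 (SE 0.16, adjusted p = 0.041 in limma) or 1.66-fold, with tomato higher in 8 of 8 lines. In the arrays titled with spaces the difference was 0.14 (SE 0.26), and with the title style as a block 0.35. Leaving out the 9 arrays with the least eggshell signal made it 0.46 (SE 0.20, adjusted p = 0.49 in limma).

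GstE10 had signals of 167, 599 and 1155 on tomato medium, 138, 511 and 1027 on ethanol medium, and 182, 432 and 684 on standard medium, which again overlap. Its mean log2 signal was 9.16 ± 0.64 on tomato and 8.58 ± 0.65 on standard medium (SD, n = 8 lines). The difference was 0.58 (SE 0.12, adjusted p = 0.036 in limma), or 1.49-fold, with tomato higher in 8 of 8 lines. It was 0.10 (SE 0.21) in the arrays titled with spaces, 0.26 with the title style as a block and 0.35 (adjusted p = 0.59 in limma) without the 9 arrays.

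GstE3, GstZ2 and GstT3 had the same sign in all 8 lines without passing. GstE3 differed by 0.41 (SE 0.12, adjusted p = 0.093), GstZ2 by 0.42 (SE 0.17, adjusted p = 0.17) and GstT3 by -0.18 (SE 0.05, adjusted p = 0.093) in limma. At an unadjusted p under 0.05 there were 9 members (30%), against 21.2% of all tested probe sets. When line 379 was left out, limma called 6 members (GstD10, GstE10, GstE3 and GstZ2 higher, GstO1 and GstT3 lower), but it then called 25.4% of all probe sets.

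Between tomato and standard medium the median difference was 0.08 log2 units for class D, with 5 of 7 genes higher, and 0.10 for class E, with 11 of 13 higher, against -0.01 over all tested probe sets. In the arrays titled with spaces, the medians were -0.08 for class D (1 of 7 higher) and -0.25 for class E (2 of 13 higher), against -0.01 over all. Without the 9 arrays they were -0.01 and 0.02.

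**Figure D4:**
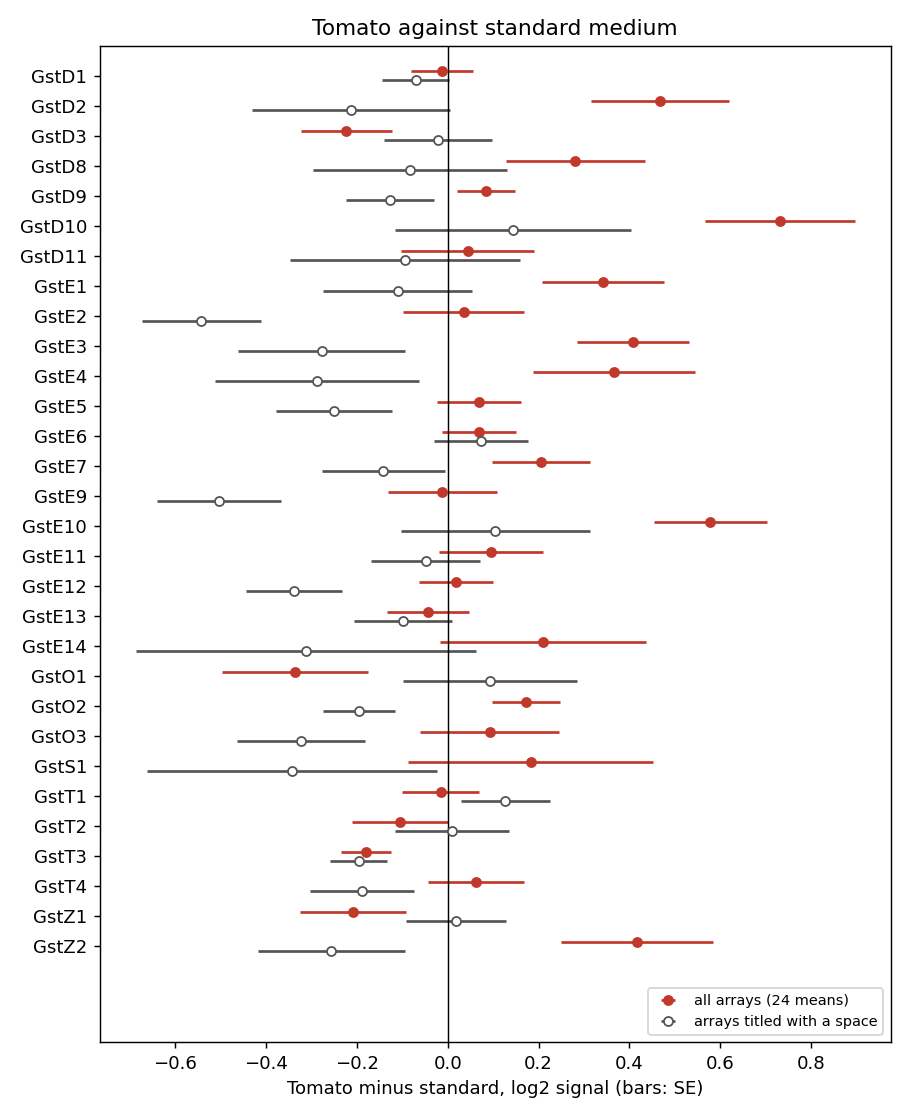
Tomato minus standard difference in log2 signal (horizontal axis, bars are SE) of the 30 tested genes over all arrays (filled) and over the arrays titled with spaces (open). GstD10 (0.73 and 0.14) and GstE10 (0.58 and 0.10) are the genes called over all arrays, and most open points of class E lie left of 0.

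Title style divided the tomato arrays strongly. In the 5 lines that hold one tomato array of each style (158, 362, 379, 786 and 859), limma called 15 of 30 members between hyphen and space arrays (50%), against 43.1% of all probe sets. On the hyphen arrays 14 were higher (46.7%, background 17.9%) and 1, GstO1, was lower (3.33%, background 25.2%). The 14 were GstD2 and GstD10, 9 of the 13 E genes, GstO2, GstT4 and GstZ2. The median difference was 0.75 log2 units for class E, 0.34 for class D and 0.27 for the other classes, against 0.05 over all tested probe sets.

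GstE4 read 401, 364, 398, 598 and 161 on the hyphen arrays of lines 158, 362, 379, 786 and 859, against 195, 191, 181, 416 and 75.4 on the space arrays of the same lines. The hyphen array was the higher one in 5 of 5 lines (0.94, SE 0.15, adjusted p = 0.0042 in limma). GstZ2 read 308, 632, 204, 222 and 269 on the hyphen arrays, against 142, 143, 128, 123 and 106 on the space arrays (1.23, SE 0.22, adjusted p = 0.0054 in limma), with no overlap. GstD10 read 171, 143, 177, 122 and 135 on the hyphen arrays, against 59.3, 150, 75.3, 49.6 and 66.1 on the space arrays, higher in 4 of 5 lines (1.00, SE 0.25, adjusted p = 0.015 in limma).

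Tissue markers were compared in the same 5 array pairs, where 17.9% of all tested probe sets were called higher and 25.2% lower. Limma called 13 of 15 eggshell genes lower on the hyphen arrays and 0 higher (median log2 difference -3.67). Of 14 accessory gland genes it called 8 lower and 1 higher (median -0.56). It called 4 of 8 midgut digestion genes higher and 0 lower, and their median of 0.87 lies between separate groups. Those called were the maltase genes Mal-A1, Mal-A6, Mal-A7 and Mal-A8, at 1.52 to 2.43. The protease genes alphaTry, betaTry, Jon65Aiv and Jon25Biii were at -0.20 to 0.23 and not called. Of 4 Malpighian tubule genes it called 0 (median 0.38). Of 3 yolk genes 0 were called (median -0.39), and of 8 testis genes 2 were called higher and 0 lower (median 0.15). Over all tomato arrays, which include lines outside these pairs, the eggshell index was at 3.67, 9.82 and 12.16 on the 11 hyphen tomato arrays (lowest, median, highest) and 11.60, 11.97 and 13.11 on the 5 space tomato arrays. Within lines, the correlation with the eggshell index over the 48 arrays was below 0 for 6 of 7 D genes (median -0.32), 12 of 13 E genes (median -0.44) and 5 of the 10 others. The share of all tested probe sets with a correlation below 0 is not given here, so these counts cannot be read as particular to the family. The arrays are shared by every gene, and the part that tissue makeup has in the differences was not tested.

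**Figure D5:**
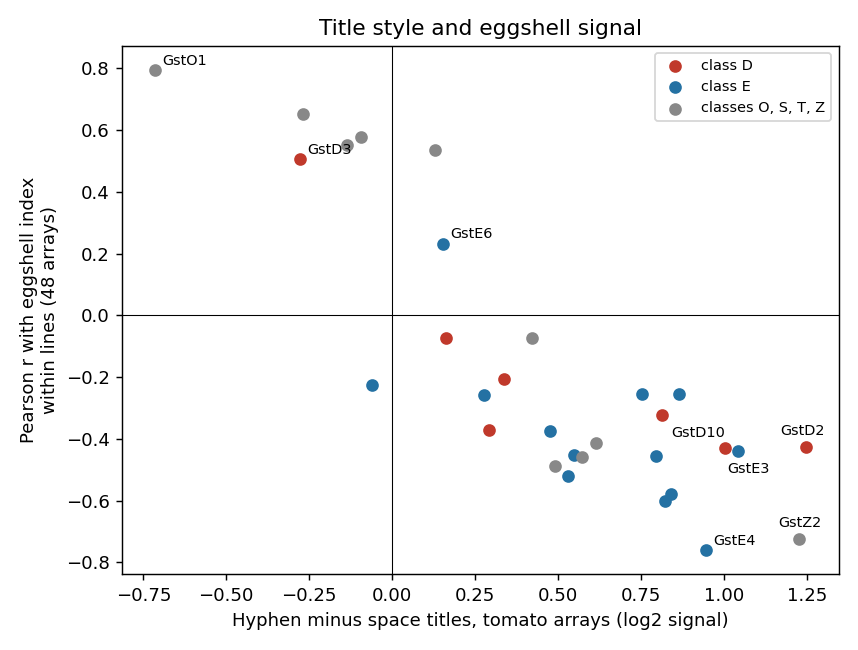
For each tested gene, the difference between hyphen and space tomato arrays (horizontal axis, log2 signal, 5 line pairs) against its Pearson correlation with the eggshell index within lines (vertical axis, 48 arrays). GstZ2, GstD2, GstD10, GstE3 and GstE4 lie at the lower right, and GstO1 (-0.71) lies farthest to the upper left.

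Differences among lines were also tested in fewer arrays, with a changed fit. When the 9 arrays with the least eggshell signal were left out, limma called 25 members in the F-test over lines (background 63.4%). In the arrays titled with spaces it called 29 (background 70.7%). Both checks were chosen after seeing the data. They fitted single arrays with line and medium as terms. The main fit, with 25 members called (background 61.8%), took the spread within combinations as error. The effect of leaving out arrays on the count cannot be read from these numbers, because the fit changed too. The difference of GstE13 in line 859 was then -3.18 without the 9 arrays and -3.25 in the arrays titled with spaces, that of GstE1 in line 379 was -3.04 and -2.85, and that of GstD3 in line 362 was -1.70 and -1.75. GstZ1 in line 774 gave -1.43 and -1.39, GstO3 in line 304 -2.13 and -2.42, and GstS1 in line 380 -1.24 and -1.69. Each of these 6 stayed under an adjusted p of 0.05 in limma in both checks. The arrays titled with spaces hold no tomato array of lines 304, 380 and 774 and no ethanol array of lines 362 and 859. On tomato medium GstS1 in line 380 was at 0.20 over all arrays. The check with spaces leaves out those tomato arrays, and the other check leaves out 1 of them. Neither check can therefore show whether the difference of GstS1 holds across media. GstD2 in line 362 (-0.88 over all arrays) was -0.90 without the 9 arrays and -0.61 (adjusted p = 0.093 in limma) in the arrays titled with spaces.

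Larval ethanol left no called change in these genes. Limma called 0 of 30 members between ethanol and standard medium, where it called 0% of all tested probe sets, and 1 member (GstE10) had an unadjusted p under 0.05, where 5.58% of all probe sets did. GstE10 differed by 0.33 (SE 0.12, adjusted p = 0.84 in limma), with ethanol higher in 6 of 8 lines. The median difference was -0.02 for class D and -0.05 for class E. It was -0.09 for both without the 9 arrays and -0.03 for both in the arrays titled with spaces.

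Between tomato and ethanol medium limma called 0 members, where it called 0.107% of all tested probe sets, and 6 had an unadjusted p under 0.05 (20%, background 6.72%). The median difference was 0.20 for class D, with 6 of 7 genes higher on tomato, and 0.16 for class E, with 12 of 13 higher. Without the 9 arrays the medians were 0.09 and 0.08. In the arrays titled with spaces they were -0.05 and -0.22. GstE2 alone was called there, lower on tomato (-0.78, SE 0.14, adjusted p = 0.031 in limma), where 0.142% of all probe sets were called. That set keeps ethanol arrays with an eggshell index as low as 4.80, while its tomato arrays were at 11.60 or more. Within lines GstE2 correlated with the index at -0.58 over the 48 arrays, and the part of tissue makeup was not tested. The comparisons of tomato with ethanol and with standard medium share their tomato arrays, and both comparisons with standard medium share the standard arrays.

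In the fit without title style, limma called no difference between lines in the response to the media: 0 of 30 passed the F-test of line by medium, where 0% of all tested probe sets passed. At an unadjusted p under 0.05 there were 2 members (6.67%, background 12.9%). With the title style as a block 8 members passed the adjusted test (GstE2, GstE4, GstE9, GstE11, GstO1, GstO2, GstT4 and GstZ2), where 16.3% of all probe sets did. In the fit without title style GstE11 had the smallest p (adjusted p = 0.21 in limma). Its signals in line 774 were 333 and 336 on tomato medium, 254 and 212 on ethanol medium, and 363 and 359 on standard medium, while in line 859 they were 293 and 358, 372 and 412, and 257 and 294 on the same media. GstO3 followed (adjusted p = 0.34 in limma), then GstS1 (adjusted p = 0.41) and GstE6 (adjusted p = 0.42).

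Genes that act with these enzymes were compared in the same fits. None of the 3 regulators cnc, Keap1 and maf-S was called between media, and all 3 differed among lines, with ranges of 2.11 for cnc, 0.94 for Keap1 and 0.73 for maf-S. Of the 3 tested genes of glutathione synthesis and turnover none was called between media and 1 among lines, Gclc, the catalytic subunit of the enzyme that starts glutathione synthesis (range 0.65, adjusted p = 1.0e-06 in limma). All 4 transporters of conjugates and drugs (MRP, Mdr49, Mdr50 and Mdr65) differed among lines, with a median range of 1.33, and none between media. Of 3 other glutathione transferase-like genes 1, the microsomal Mgstl, was lower on tomato than on standard medium (-0.33, SE 0.07, adjusted p = 0.038 in limma), and this call did not hold in 3 checks. The difference was -0.22 with the title style as a block and -0.21 in the arrays titled with spaces, where 0% of all tested probe sets were called in either fit, and -0.30 (adjusted p = 0.069 in limma) without the 9 arrays.

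The 5 tested cytochrome P450 genes listed as CncC-responsive were not called between media and all differed among lines, with a median range of 3.57 log2 units. The widest were Cyp12d1-d (8.44), Cyp6a2 (4.93) and Cyp6a8 (3.57), enzymes of the first step of detoxification. Limma called 4 of the 5 higher on the hyphen than on the space tomato arrays, where it called 17.9% of all tested probe sets higher. Of the thioredoxin and glutaredoxin genes 5 of 7, and 4 of 4 genes of superoxide and peroxide removal, also differed among lines, with median ranges of 0.89 and 0.63, and none between media. The share of all tested probe sets that differed among lines was 61.8%, so counts this high are common on these arrays.

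Over the 24 combinations the genes outside the family most like the class D mean were CG31087 (Pearson r 0.77), CG2076 (0.76), CG17028 (0.73), Phae1 (0.72) and CG30022 (0.70). Those most like the class E mean were CG1092 (0.85), Cyt-b5-r (0.84), Nepl6 (0.84), CG5577 (0.83) and NPFR (0.83). They were the 5 highest of 9389 genes for each class. Without the 9 arrays, which leaves 23 combinations, the same genes gave 0.62 to 0.75 for class D and 0.76 to 0.90 for class E.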

How the data were processed

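The files hold deposited linear intensities that the authors computed with MAS5 (version not stated), per the submitters' processing notes. Every array had a mean signal between 500.009 and 500.016 after trimming 2% at each end. Depth has no count here, and the number of arrays limits the precision. After a floor of 1, intensities were converted to log2, 183 control probe sets of 18952 were left out, and the upper 60% by mean log2 signal were tested.

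Tests used limma 3.58.1 under R 4.3.3. Media contrasts were fitted to 24 means, 1 for each line and medium (line and medium as terms, 14 residual degrees of freedom). Lines and the interaction were tested on 48 arrays with the spread within combinations as error (24 residual degrees of freedom). The checks on lines without the 9 arrays and in the arrays titled with spaces fitted single arrays with line and medium as terms. Title style was tested in 5 tomato pairs. P-values were adjusted by Benjamini-Hochberg over all probe sets, and the code was tested on simulated data. Folds are log2 differences turned to the linear scale.

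Symbols came from the platform table. The RefSeq table of assembly Release 6 plus ISO1 MT matched 34 of 34 members and was used for names, chromosome arms and neighbours. No sequences were used here. Values by line and medium were given for members called between media, the 4 D and 4 E genes with the smallest F-test p over lines, up to 4 with the smallest interaction p, GstS1, and the gene with the smallest F-test p of classes O, T and Z. The members, the lists of other genes and these rules were chosen with earlier results of these data known. Alternatives covered normalisation, the filter, a pseudocount of 32, blocks by array number and title style, arrays titled with spaces, the eggshell index, and leaving out arrays, media or lines.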

Additional observations from a re-analysis of the deposited data

Results flagged for a closer look

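Of the 30 tested members, 8 had a lowest line whose mean log2 signal stood apart from the other 7 by Dixon's criterion (26.7%, against 6.07% of all tested probe sets), and 0 had a highest line that did (background 2.82%). Chance flags about 1 in 20 groups when both ends are counted together. GstE13 averaged 6.6 in line 859, where the nearest line was at 9.57 and the farthest at 10.01. GstZ1 averaged 6.98 in line 774, against 8.40 to 8.88 in the others. GstE1 averaged 7.67 in line 379, against 10.02 to 11.10. GstE6 averaged 10.68 in line 859, against 11.72 to 12.24.

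GstD11 averaged 4.74 in line 158, against 5.74 to 6.50 in the others, and GstE3 averaged 9.95 in line 304, against 10.90 to 11.64. GstE7 averaged 8.53 in line 786, against 9.67 to 10.60. GstS1 averaged 12.33 in line 380, against 13.10 to 13.76, and its tomato arrays did not share the low level.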

How the results depend on the processing

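The number of members called among lines, 25 over all arrays, was 24 to 27 when any array was left out, 22 in the standard arrays alone, 16 in the ethanol arrays alone and 7 in the tomato arrays alone. The 89 called pairs of gene and line became 82 to 98 when any array was left out, 75 in the standard arrays alone, 40 in the ethanol arrays alone and 16 in the tomato arrays alone. Over all probe sets the share called among lines was 48.6%, 17.8% and 4.8% in the standard, ethanol and tomato arrays, against 61.8% in all arrays. The share of all pairs called was 14.5%, 7.62% and 1.01%, against 19.8%. For 30 results of a gene and a line, 335 of 382 alternatives kept direction and side of the threshold, 34 lost the call, 12 gained one and 1 reversed: GstS1 in line 380 was 0.20 in the tomato arrays alone, and the cause was not tested. Of 1536 results with an array left out, 50 lost the call and 0 reversed.

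The 2 members called higher on tomato than on standard medium became 1 with no filter, 1 in the upper 40% of probe sets, 0 with the title style as a block, 0 in the arrays titled with spaces and 0 without the 9 arrays of lowest eggshell index. Of all tested probe sets 0%, 0% and 0.0622% were called in the last 3 of these fits, against 1.15% over all arrays. They became 0 without line 158, 304, 362, 380, 774, 786 or 859, and 6 without line 379. With any array left out the count was 0 to 4. It was 0 without a tomato array of lines 158, 362, 379, 774, 786 or 859, an ethanol array of lines 158, 304, 362 or 774, or a standard array of lines 158 or 304, and 4 without the other tomato array of line 859. It was 1 without a standard array of lines 362, 380 (either) or 786, a tomato array of line 362, or an ethanol array of lines 774, 786 or 859, and 3 without a standard array of line 158 or a tomato array of line 379. The differences stayed above 0 throughout, at 0.14 to 0.83 for GstD10 and 0.10 to 0.66 for GstE10. The class E median became -0.25 in the arrays titled with spaces.

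Between tomato and ethanol medium the 0 called members became 1 in the arrays titled with spaces and were 0 to 0 with any array left out. Between ethanol and standard medium 0 were called under all 18 alternatives and with any array left out. The interaction had 0 called members with any array left out and 8 with the title style as a block (16.3% of all probe sets). The 15 members called between title styles became 9 in the upper 40% of probe sets, where 22 members were tested. The share of all probe sets called in that fit is not given here. The cause of these changes was not tested.

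Array numbers showed no common pairing of the samples in the 15 combinations numbered 1 and 2. Deviations of same-numbered arrays correlated at -0.77 to 0.71 over 105 pairs of combinations (median -0.02, 29 over 0.1). A median near 0 cannot exclude pairing among some combinations, and those with other numbers were not covered. With the array number as a replicate block, 0 members were called between tomato and standard medium and the class E median was -0.14, while 29 members were called among lines. The share of all probe sets called among lines with that block is not given here.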
